A study of Mus musculus with 6 samples.

Results

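The genes described here encode the sarcomere of skeletal muscle and the machinery that couples electrical excitation to its contraction. They were chosen by name from thin filament, thick filament, Z-disc, M-band, triad and calcium handling genes, and all 47 listed genes were found among the 15176 genes of the deposited table by their GENCODE M21 symbols. The tissue was iWAT, the inguinal white fat pad under the skin, taken from mice on a high-fat diet. The 4 control libraries were Steap4f/f (replicates 1, 2, 5 and 6), from mice with a floxed Steap4 gene, and the 2 other libraries were Steap4AKO (replicates 2 and 3), described in the series title as an adipocyte-specific deficiency. Both groups had the same diet, and the sources used here do not give the Cre driver, age or strain. The study asked how Steap4 bears on diet-induced mitochondrial dysfunction in fat, so that muscle genes were not its subject.

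In a sarcomere, myosin thick filaments slide along actin thin filaments, which are anchored at the Z-disc, while the M-band holds the thick filaments in register. An action potential spreads over the fibre membrane into the triads, where the voltage-sensing calcium channel opens the ryanodine receptor, and calcium leaves the sarcoplasmic reticulum. Calcium pumps and the storage protein calsequestrin then refill that store. White fat contains no such fibres, but it lies against skeletal muscle and holds smooth muscle cells in its vessel walls, which share some of these proteins.

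The deposited values, gene counts normalized by the authors, summed to between 16573561 and 20547925 per library. Steap4 itself had values of 17018, 9417, 8310.0 and 8851 in Steap4f/f replicates 1, 2, 5 and 6 and of 8313 and 8014 in Steap4AKO replicates 2 and 3, a log2 difference of -0.35 (SE 0.29, limma adjusted p = 0.544). The groups overlapped by a small margin, since Steap4f/f replicate 5 lay just below Steap4AKO replicate 2, and the whole-tissue level of this transcript gave no check of the genotype labels. Adipoq and Plin1, 2 of 8 adipocyte markers, were high in every library, at 21862 and 30217 in the library where each was lowest, Steap4AKO replicate 2. The median of the 8 was 58.4% of its control level in that library, 106% in Steap4AKO replicate 3 and 98.5 to 107% in Steap4f/f. Fabp4 and Retn were lower without overlap in Steap4AKO (limma adjusted p = 0.355 and 0.228), as were 14.4% of all genes tested. Leptin (Lep) was higher, at 55202 and 43433.5 in Steap4AKO replicates 2 and 3 against 8106 to 22141 in Steap4f/f (limma adjusted p = 0.0988). Of all genes tested, 14.1% were higher without overlap. None of the 8 markers passed the threshold used below. Steap4AKO replicate 2 stood apart: 973 of 15006 tested genes were more than 2-fold above every other library, against 20 to 148 in the other libraries. Smooth muscle genes were among them, with the smooth muscle myosin Myh11 at 15119.8 against 757.5 to 1382 elsewhere and calponin, Cnn1, at 4471 against 29.7 to 130.2. Whether the libraries came from different mice is not stated in the labels, and p-values here cover the spread among these 6 libraries only.

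Sarcomere and excitation-contraction genes had far lower values in both Steap4AKO libraries, and they also differed several-fold among the Steap4f/f libraries. With each gene expressed as a percentage of its own Steap4f/f mean, the median over the 47 genes was 28.2, 119, 82.0 and 169% in Steap4f/f replicates 1, 2, 5 and 6. For Steap4AKO the medians were 0.717% (replicate 2) and 5.09% (replicate 3). The control libraries thus spanned 5.99-fold, and the lowest of them was 5.55-fold above the higher of the Steap4AKO libraries. Together the 47 genes made up 0.62, 2.64, 1.97 and 3.46% of all deposited values in the controls, against 0.09 and 0.12% for Steap4AKO. In whole tissue, fewer cells of a type and less RNA per cell cannot be told apart.

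**Figure D1:**
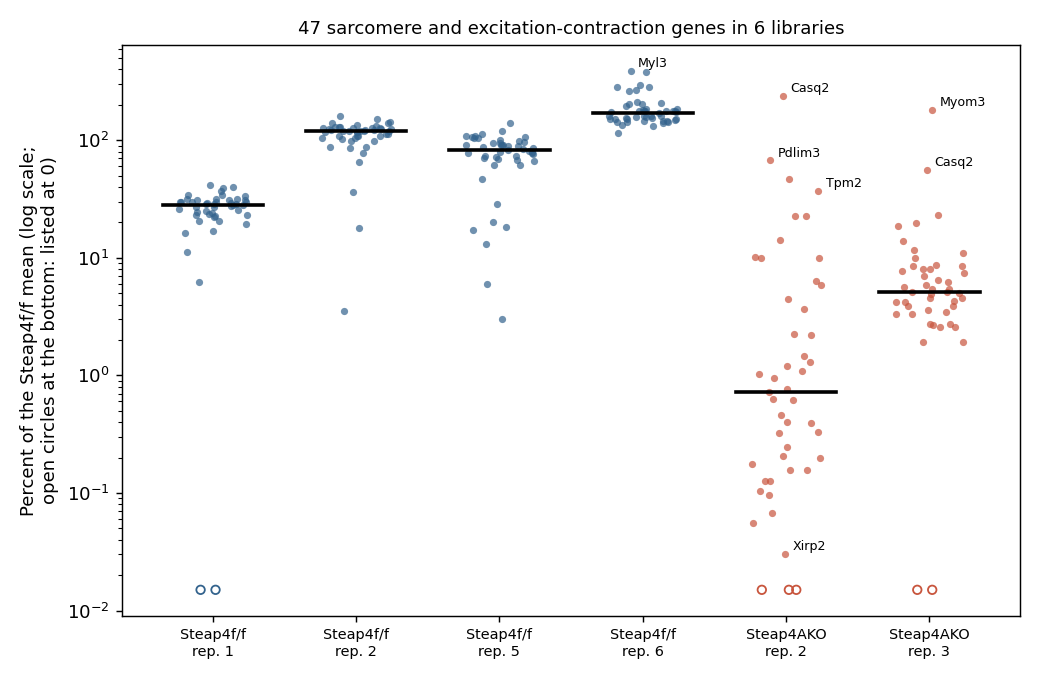
Each point is 1 of the 47 genes, as a percentage of its Steap4f/f mean (log axis), in each of the 6 libraries; black bars are medians and open circles at the bottom are genes listed at 0. The points of each Steap4f/f library lie mostly in a narrow band, with a few genes below it in replicates 1, 2 and 5 and 7 genes above it in replicate 6, while those of Steap4AKO replicate 2 range from 0 to 239.9% around a median of 0.717%.

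Of the 47 genes, all of which were tested, 14 fell in Steap4AKO (limma on log2(value + 1), Benjamini-Hochberg adjusted p under 0.05) and none rose. That is 29.8% of these genes, beside 0.433% of the 15006 genes tested that fell and 0.04% that rose. The 14 were Acta1, Tmod4, Mybpc2, Myl1, Mylk2, Actn3, Myom2, Cacng6, Ryr1, Jsrp1, Dhrs7c, Pvalb, Scn4b and Tmem233, with mean values 22.9-fold to 94.1-fold lower. An unadjusted p under 0.05 was reached by 41 of the 47, all lower, beside 9.66% of all genes tested in this direction. An adjusted p under 0.1 was reached by 33, beside 2.09% of all genes tested in this direction, and the lowest value that missed the 0.05 threshold was 0.0527. For 39 of the 47 genes both Steap4AKO libraries lay below every Steap4f/f library, a share of 83.0%, beside 14.4% of all genes tested. The median log2 difference was -5.01 over the 47 genes and 0.02 over all genes tested, and 45 of the 47 were negative beside 47.8% of all genes.

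The 14 calls sat just under the threshold, with adjusted p-values from 0.0466 to 0.0484. None of the 47 genes passed with a pseudocount of 0.5, a mean of at least 50, no intensity trend, a robust prior, or totals scaled without muscle genes. Calls over all genes tested fell with them, from 71 to 13 with no intensity trend and to 1 with each of the others. None of the 47 genes passed when Steap4f/f replicate 2, 5 or 6 was left out (1 of all genes in each case). Without Steap4f/f replicate 1, 31 passed, beside 238 of all genes. The count of genes lower without overlap was 41 without Steap4AKO replicate 2 and 41 without Steap4AKO replicate 3, and the median log2 difference was -3.94 and -6.23. With either Steap4AKO library left out, 1 is left in its group and is assumed to vary like the controls, so that no count of calls is given. Lower without overlap then rests on 1 library, and its share over all genes was not computed.

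**Figure D2:**
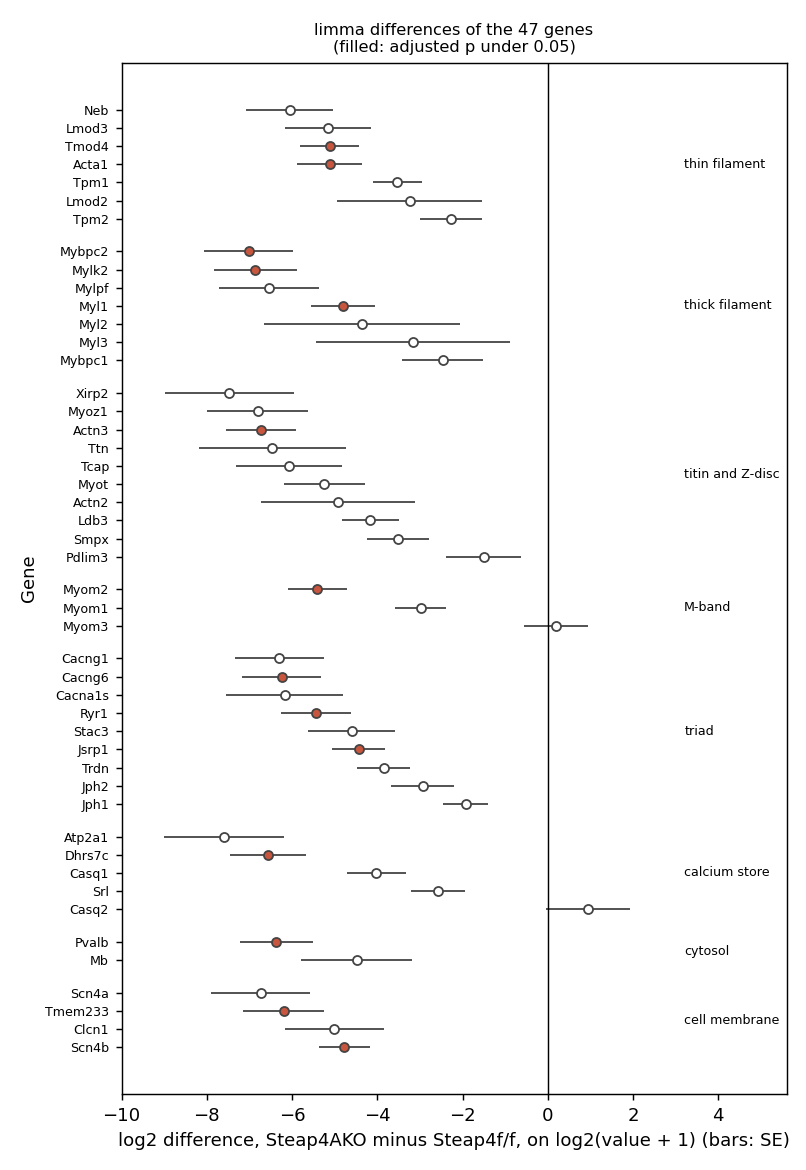
Log2 differences (Steap4AKO minus Steap4f/f, on log2(value + 1)) of the 47 genes by their role, with bars for the SE from limma over 4 and 2 libraries; filled points have an adjusted p under 0.05. Differences run from -7.60 (Atp2a1) to 0.94 (Casq2), and 2 genes, Myom3 and Casq2, lie to the right of 0.

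Within the Steap4f/f group most of these genes kept a nearly constant ratio to each other. The order of the libraries, from low to high, was replicate 1, 5, 2 and 6 for 36 of the 47 genes, replicate 1 was lowest for 44, and replicate 6 was highest for 43. Across the 4 libraries the SD of the log2 value had a median of 1.16 over the genes. Much of that spread came from the low replicate 1, since the median SD was 0.54 without it. With all 4 libraries, the level shared with the other genes was then subtracted (the median over the other 46 of the log2 value centred on its Steap4f/f mean). The median SD was then 0.28, and 26 genes had an SD under 0.3. Skeletal alpha-actin (Acta1), triadin (Trdn), sarcalumenin (Srl) and myomesin 1 (Myom1) each had 0.08, the lowest SD of all, and moved from library to library by almost the same factor. In replicate 1, for example, Acta1 stood at 26.8%, Trdn at 28.2%, Srl at 29.7% and Myom1 at 29.8% of their Steap4f/f means, and in replicate 6 at 177, 178, 175 and 175%. These genes belong to the thin filament, the triad, the calcium store and the M-band, where the median SD was 0.22, 0.21, 0.24 and 0.13. Other genes of the same structures followed less closely, such as Lmod2 (1.60), Stac3 (0.51), Casq2 (1.31) and Myom3 (0.61).

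A list of 16 skeletal muscle markers that are not among the 47, such as muscle creatine kinase (Ckm) and the fast myosin Myh4, gave closely similar library levels in Steap4f/f. Its median percentage was 29.5, 121, 84.9 and 166% in replicates 1, 2, 5 and 6, which is 0.957 to 1.02 as a ratio of the 2 medians (the 47 genes over the 16). In Steap4AKO the markers stood lower than the 47 genes, at 0.324% in replicate 2 and 3.16% in replicate 3, ratios of 2.22 and 1.61. Their summed values were 94279.5, 385906, 307385 and 478502 in the controls against 1226 and 11491 for Steap4AKO. Of the 16, 15 were lower without overlap, beside 14.4% of all genes tested. Of 10 heart markers 6 were measured, with summed values of 252 to 825 in the 6 libraries, and they did not follow 1 pattern. Cardiac actin (Actc1) had 60.2, 94.1, 215.3 and 486.5 in the controls against 6.4 and 30.9, lower without overlap (adjusted p = 0.134). The atrial light chain Myl4 was 122.3 to 361.1 with its highest value in Steap4AKO replicate 3, Ryr2 was 14.2 to 132.1 with its highest value in Steap4AKO replicate 2, and Pln, Tnnt2 and Tnni3 were at most 51.3, 34.6 and 41.6 in any library. The part of carried muscle tissue in these differences was not tested.

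The heat map of each gene relative to the median gene of its library shows where this shared level broke down. In Steap4f/f, 38 to 42 of the 47 genes lay within 1.5-fold of the library's median percentage. That number was 21 in Steap4AKO replicate 3 and 6 in Steap4AKO replicate 2, where 10 genes lay more than 10-fold above the median. Values were low in the same library: 15 of the 47 genes were under 5 in Steap4AKO replicate 2, against 2 genes in Steap4AKO replicate 3.

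**Figure D3:**
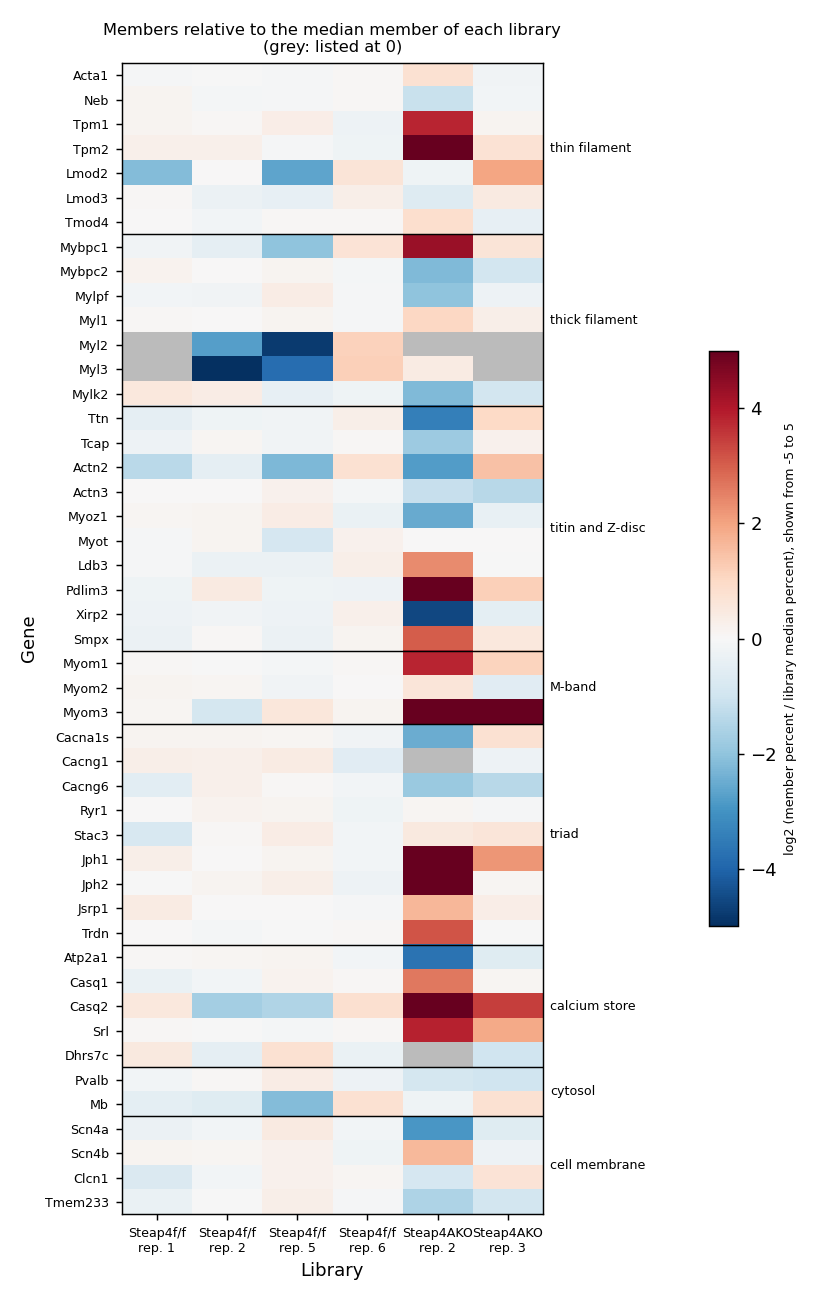
Colour gives log2 of each gene's percentage over the median percentage of its library (columns), shown from -5 to 5, with genes (rows) grouped by role and grey for values listed at 0. The Steap4f/f columns are pale except for Lmod2, Mybpc1, Myl2, Myl3, Actn2, Casq2 and Mb, and the Steap4AKO replicate 2 column holds both strong reds, such as Pdlim3, Jph1, Jph2 and Casq2, and strong blues, such as Xirp2 and Atp2a1.

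Sequence upstream of the genes was examined because most of them moved together. The RefSeq promoter table of GRCm38.p6 held 32 of the 47 genes, in 38 windows, and the 250 bases before each start were searched for CAGCTG, an E-box bound by myogenic factors such as MyoD, for the MEF2 consensus and for the CArG box bound by serum response factor. Each of these motifs is its own reverse complement, so that a search of one strand covers both, and no site was shared between motifs in the windows shown. The upstream windows of 6 genes are printed from 5′ to 3′ in the direction of transcription, with motif matches in capitals. Acta1, Atp2a1, Mylpf, Ttn and Tpm2 are shown as genes of different structures that followed the shared level in Steap4f/f, and Casq2 as one that did not. In Steap4AKO replicate 2 the genes differed, with Tpm2 and Casq2 51.9 and 334 times the median percentage and Atp2a1 and Ttn at 0.0778 and 0.0941 of it, so that the windows are not sorted by a common behaviour in that group. They lie at chr8:123894776-123895025 (minus strand), chr7:126463074-126463323 (minus strand), chr7:127211358-127211607 (plus strand), chr2:76982548-76982797 (minus strand), chr4:43523555-43523804 (minus strand) and chr3:102086165-102086414 (plus strand).
Acta1: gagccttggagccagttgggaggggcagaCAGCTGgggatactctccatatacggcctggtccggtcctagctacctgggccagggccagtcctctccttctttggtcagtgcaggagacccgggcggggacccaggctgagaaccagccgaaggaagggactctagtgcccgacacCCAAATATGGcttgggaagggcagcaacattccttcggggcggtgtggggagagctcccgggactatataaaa
Atp2a1: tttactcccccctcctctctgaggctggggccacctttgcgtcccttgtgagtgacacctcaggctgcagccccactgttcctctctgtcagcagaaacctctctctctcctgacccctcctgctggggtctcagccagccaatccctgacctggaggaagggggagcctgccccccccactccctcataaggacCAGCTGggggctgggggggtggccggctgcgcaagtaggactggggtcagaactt
Mylpf: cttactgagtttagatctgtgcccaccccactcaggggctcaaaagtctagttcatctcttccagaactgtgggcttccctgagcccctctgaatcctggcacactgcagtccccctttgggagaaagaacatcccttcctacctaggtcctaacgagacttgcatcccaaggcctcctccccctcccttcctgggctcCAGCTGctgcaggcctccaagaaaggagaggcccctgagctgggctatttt
Ttn: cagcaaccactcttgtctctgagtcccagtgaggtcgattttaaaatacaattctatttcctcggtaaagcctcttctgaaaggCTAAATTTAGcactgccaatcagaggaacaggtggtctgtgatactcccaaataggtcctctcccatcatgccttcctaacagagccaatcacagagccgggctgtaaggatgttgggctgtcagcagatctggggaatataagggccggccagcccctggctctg
Tpm2: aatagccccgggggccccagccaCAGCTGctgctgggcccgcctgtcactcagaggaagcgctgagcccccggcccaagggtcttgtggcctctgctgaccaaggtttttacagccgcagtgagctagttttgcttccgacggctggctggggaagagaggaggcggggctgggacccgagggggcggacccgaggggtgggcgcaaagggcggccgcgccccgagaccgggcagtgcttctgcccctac
Casq2: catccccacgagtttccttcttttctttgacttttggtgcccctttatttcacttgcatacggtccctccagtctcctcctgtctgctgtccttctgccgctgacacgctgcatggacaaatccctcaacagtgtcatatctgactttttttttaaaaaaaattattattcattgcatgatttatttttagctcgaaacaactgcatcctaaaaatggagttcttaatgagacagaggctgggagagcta

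Acta1 carried CAGCTG starting 221 bases and a CArG box starting 73 bases before the start, Atp2a1 and Mylpf carried CAGCTG at 55 and 51 bases, Ttn a MEF2 match at 166 bases and Tpm2 CAGCTG at 227 bases, and the Casq2 window held none of the motifs. CAGCTG was present in 15 of the 38 windows (39.5%) against 4271 of 32851 windows of this length in the whole table (13.0%). The MEF2 pattern was in 3 windows (7.89%, those of Clcn1, Ttn and Xirp2) against 0.508% of all windows, and the CArG box in 5 (13.2%, of Acta1, Ldb3, Myl3 and Myom1) against 1.47%. Windows of Jph2, Mb and Ldb3 overlap, so that the same site was counted more than once. Counted by gene, CAGCTG was in 13 of the 32 (40.6%), the MEF2 pattern in 3 (9.38%) and the CArG box in 4 (12.5%). The printed windows do not stand for a split of motifs by behaviour in Steap4f/f. Mb, Mybpc1 and Myl2 departed from the shared level there and carried CAGCTG, and Myl3 departed and carried a CArG box. Actn2, Lmod2 and Casq2 departed and carried none. Ryr1, Mybpc2, Pvalb and Tmod4 followed the shared level and carried none either. These matches describe the letters of the windows and show no binding.

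Genes of the thin filament had a median log2 difference of -5.12, with 2 of 7 called and 5 of 7 lower without overlap. Beside this and the counts by role below, 0.433% of all genes tested were called lower and 14.4% were lower without overlap. Most of these genes shared a library level, so that the counts within a role are not separate observations. Acta1, the actin of skeletal muscle thin filaments (chromosome 8, 123891769 to 123894751 on GRCm38), had 26016, 114194, 77079.7 and 171628 in Steap4f/f replicates 1, 2, 5 and 6 and 1173 and 4435 in Steap4AKO replicates 2 and 3. The lowest control library was thus well above both Steap4AKO libraries, and the mean fell 34.7-fold, from 97229.6 ± 61374 (SD, n = 4) to 2804 ± 2306 (SD, n = 2), a log2 difference of -5.12 (SE 0.77, limma adjusted p = 0.0466). Tropomodulin 4 (Tmod4), which caps the pointed end of the filament in muscle, fell 38.7-fold, from 217.7, 819.5, 639.8 and 1338 to 9.8 and 29.2 (log2 difference -5.12, SE 0.70, limma adjusted p = 0.0466). The filament-length protein nebulin (Neb) and leiomodin 3 (Lmod3), a nucleator of actin filaments, had adjusted p-values of 0.0527 and 0.0682, with means 40.8-fold and 26.8-fold lower and no overlap.

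The tropomyosins, which control access of myosin to actin and have isoforms in smooth muscle and other cells too, kept more of their level than the median gene in Steap4AKO replicate 2, at 9.96% (Tpm1) and 37.2% (Tpm2). In replicate 3 Tpm1, at 5.66%, was close to the median gene, and Tpm2 was at 8.49%. Tpm1 had 11440.1, 44692, 37726 and 51727 in the controls against 3625 and 2060.4 for Steap4AKO, a log2 difference of -3.53 (SE 0.58, limma adjusted p = 0.0527), without overlap. Tpm2 had 5611, 23569, 13149.8 and 24790.1 against 6242 and 1425, so that Steap4AKO replicate 2 lay above Steap4f/f replicate 1, and a log2 difference of -2.27 (SE 0.72, limma adjusted p = 0.18) did not pass. In both genes Steap4AKO replicate 2 was above replicate 3, the reverse of the order in 38 of the 47 genes. Leiomodin 2 (Lmod2) ranged from 21.2 to 895.7 within Steap4f/f, at 21.2, 407.0, 45.1 and 895.7, and Steap4AKO replicate 3, at 67.6, was above 2 control libraries, while Steap4AKO replicate 2 stood at 2.1.

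In the thick filament 3 of 7 genes were called and the median log2 difference was -4.80. Mybpc2, the myosin-binding protein C of fast fibres, had 4524, 16974, 12952 and 22289 in the controls against 22.1 and 380.8 for Steap4AKO, and its mean fell 70.4-fold (log2 difference -7.02, SE 1.04, limma adjusted p = 0.0466). Its slow-fibre counterpart Mybpc1 had 981.2, 3384, 793.4 and 10575 against 554.7 and 313.5, a mean 9.06-fold lower that did not pass (adjusted p = 0.238), with no overlap. Mybpc1 thus kept 14.1% of its control mean in Steap4AKO replicate 2, where Mybpc2 kept 0.156%.

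Myl1, an essential light chain of fast myosin, fell 26.0-fold, from 5865, 24305, 17942 and 32345 to 293.0 and 1256 (log2 difference -4.80, SE 0.75, limma adjusted p = 0.0484). Mylk2, the kinase that phosphorylates the regulatory light chain in skeletal muscle, fell 69.8-fold, from 916.4, 3462, 1394 and 3300.5 to 3.6 and 61.4 (log2 difference -6.86, SE 0.98, limma adjusted p = 0.0466), and the fast regulatory light chain Mylpf had a mean 45.5-fold lower that missed the threshold (adjusted p = 0.0597). The slow and cardiac light chains behaved otherwise. Myl2, the regulatory chain of slow fibres, had 0, 34.2, 5.8 and 728.8 in Steap4f/f while Steap4AKO replicates 2 and 3 were at 0, as was Steap4f/f replicate 1. Myl3, the matching essential chain, had 0, 5.4, 9.1 and 600.3 in the controls against 1.5 and 0 for Steap4AKO. Of both light chains, Steap4f/f replicate 6 alone held a level above 40, and neither passed the test (adjusted p = 0.359 for Myl2 and 0.49 for Myl3).

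Titin and the Z-disc contributed 10 genes, with a median log2 difference of -5.66, 8 of them lower without overlap and 1 called. Actn3, the alpha-actinin of fast fibres that crosslinks actin at the Z-disc, had 6520.5, 27404, 21820.2 and 36112 in the controls against 74.4 and 444.9 for Steap4AKO, an 88.4-fold fall of the mean (log2 difference -6.72, SE 0.82, limma adjusted p = 0.0466). Actn2, its paralog found in all fibre types and in the heart, had 160.0, 1246, 248.3 and 4054 against 1.5 and 198.8, so that Steap4AKO replicate 3 lay above Steap4f/f replicate 1 (adjusted p = 0.222). The spring protein titin (Ttn) had 4474, 22069.8, 15839.6 and 44197 in Steap4f/f, 14.6 in Steap4AKO replicate 2 and 2175 in replicate 3, a log2 difference of -6.46 (SE 1.73, limma adjusted p = 0.134) that did not pass. Titin thus differed widely between the Steap4AKO libraries, at 0.0675% and 10% of its control mean.

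Xirp2, an actin-binding repeat protein, had 1127, 4917, 3230.0 and 9524 against 1.4 and 169.5, and its log2 difference of -7.47 came with an SE of 1.52 and an adjusted p of 0.0753. Myoz1, a calcineurin-binding Z-disc protein of fast fibres, had 1205, 5169.6, 4215 and 5410.3 against 5.0 and 156.9 (adjusted p = 0.0536). For telethonin (Tcap), which caps titin, myotilin (Myot), the Z-disc adaptor Ldb3 and the small muscle protein Smpx, means were 32.8-fold, 34.5-fold, 22.8-fold and 15.1-fold lower, all without overlap and with adjusted p-values from 0.0527 to 0.0782. The actinin-associated LIM protein Pdlim3, like Actn2, was not lower without overlap, with 229.7, 1517, 658.4 and 1337 in Steap4f/f, 630.6 in Steap4AKO replicate 2 and 108.6 in replicate 3 (log2 difference -1.50, SE 0.88, limma adjusted p = 0.401). Steap4AKO replicate 2 lay within the range of the control libraries for Pdlim3.

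The M-band genes went separate ways. Myom2, a myomesin of fast fibres, fell 44.3-fold, from 968.8, 3983, 2306 and 5322 to 34 and 107.9 (log2 difference -5.41, SE 0.69, limma adjusted p = 0.0466). Myom1, which is found in all striated muscle, had 1086, 4329, 2797 and 6390.3 against 366.5 and 398.4, a mean 9.54-fold lower without overlap (adjusted p = 0.0737). Its level was almost the same in both Steap4AKO libraries, where Acta1 differed by several-fold. Myom3 had 102.7, 225.2, 414.0 and 633.8 in the controls against 160.9 and 627.5 for Steap4AKO, so that Steap4AKO replicate 3 was level with the highest control and replicate 2 lay within the control range (log2 difference 0.19, SE 0.76, limma adjusted p = 0.915).

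All 9 genes of the triad were lower without overlap, with a median log2 difference of -4.60, and 3 were called. Ryr1, the calcium release channel (chromosome 7, 29003344 to 29125179), had 2584, 12124, 8206 and 13355 in the controls against 68.9 and 443.4 for Steap4AKO, and its mean fell 35.4-fold (log2 difference -5.44, SE 0.83, limma adjusted p = 0.0483). Cacng6, a gamma subunit of the voltage-gated calcium channel, had 69.0, 503.3, 303.9 and 540.5 against 0.7 and 6.8 (log2 difference -6.24, SE 0.93, limma adjusted p = 0.0466). Its Steap4AKO replicate 2 value was under 1, so that its fold is imprecise. Jsrp1, a triad protein that binds the voltage sensor, fell 22.9-fold, from 193.0, 620.7, 424.7 and 832.9 to 11.7 and 33.5 (log2 difference -4.44, SE 0.62, limma adjusted p = 0.0466).

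The voltage sensor itself, Cacna1s, the gamma subunit Cacng1, the adaptor Stac3, which the voltage sensor needs to reach and work in the triad, and triadin (Trdn), which links the release channel to calsequestrin, were lower on average by 23.1-fold, 47.5-fold, 22.8-fold and 17.5-fold, in that order. Their adjusted p-values were 0.0897, 0.0527, 0.0897 and 0.0527. The junctophilins, which tie the membrane to the calcium store, kept the most of the triad genes in Steap4AKO replicate 2. Jph1 had 374.7, 1320.5, 971.0 and 1678 against 244.0 and 252.9, 22.5 and 23.3% of its control mean (log2 difference -1.93, SE 0.53, limma adjusted p = 0.139). Jph2, also a gene of heart and smooth muscle, had 956.4, 4464, 3376 and 4807 against 771.9 in Steap4AKO replicate 2 and 185.6 in replicate 3 (adjusted p = 0.12), so that replicate 2 was the higher of these libraries.

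Among genes of the calcium store, Atp2a1, the SERCA1 calcium pump of fast fibres (chromosome 7, 126445858 to 126463108), had the lowest log2 difference of all 47 genes. Its values were 24944, 106722, 75988 and 128071 in Steap4f/f, 46.8 in Steap4AKO replicate 2 and 2813 in replicate 3, a log2 difference of -7.60 (SE 1.41, limma adjusted p = 0.0646). The pump did not pass the test, although both Steap4AKO libraries lay far below the controls, and they differed widely from each other. Dhrs7c, an enzyme of the sarcoplasmic reticulum, did pass, with 123.8, 278.7, 440.7 and 422.3 in the controls against 0 and 8.1 for Steap4AKO (log2 difference -6.56, SE 0.89, limma adjusted p = 0.0466). Its value in Steap4AKO replicate 2 was listed at 0.

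The 2 calsequestrins, which bind calcium inside the store, did not move alike. Casq1, the skeletal muscle form, had 1773, 8548, 7199 and 13852 in the controls against 347.7 and 422.0 for Steap4AKO, a mean 20.4-fold lower without overlap (adjusted p = 0.0536). Casq2, the form of heart, slow fibres and some smooth muscle, had 25.9, 22.8, 18.0 and 184.6 in the controls against 150.7 and 35.4 for Steap4AKO (log2 difference 0.94, SE 0.99, limma adjusted p = 0.645). Steap4AKO replicate 2 was thus above 3 of the 4 control libraries, and Steap4f/f replicate 6 was the highest of all. Sarcalumenin (Srl), a calcium-binding glycoprotein of the same compartment, had means of 2530.1 ± 1561 (SD, n = 4) and 367 ± 154 (SD, n = 2), with no overlap and an adjusted p of 0.111.

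Parvalbumin (Pvalb), the cytosolic calcium buffer that speeds relaxation of fast fibres, fell 67.8-fold. It had 4619, 22566, 19477 and 26042 in the controls against 71.2 and 464.6 for Steap4AKO (log2 difference -6.37, SE 0.86, limma adjusted p = 0.0466), with a wide gap between the groups. Myoglobin (Mb), the oxygen store of oxidative fibres, had 442.3, 1689, 395.7 and 6158 against 13.4 and 187.9, lower without overlap at an adjusted p of 0.156. Replicate 5 had the lowest control value of Mb, where it was replicate 1 for Pvalb.

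At the fibre membrane, the sodium channel beta subunit Scn4b fell 30.7-fold, from 437.4, 1750.0, 1333 and 2053 to 30.6 and 60.2 (log2 difference -4.78, SE 0.60, limma adjusted p = 0.0466), and Tmem233, a small membrane protein, fell 67.4-fold, from 129.6, 679.7, 583.4 and 936.5 to 1.4 and 15.9 (log2 difference -6.20, SE 0.95, limma adjusted p = 0.0482). Scn4a, the sodium channel that carries the muscle action potential, had 299.8, 1416, 1474 and 2023 against 1.2 and 43.2 (adjusted p = 0.0536). The chloride channel Clcn1, which stabilises the resting membrane, had a mean 23.6-fold lower (adjusted p = 0.0988). All 4 membrane genes were lower without overlap.

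Levels of different genes can be set side by side only per length, and per kilobase of annotated exon the control means ranged widely. Acta1 was highest at 63301, followed by Atp2a1 at 24139, Pvalb at 17460.3, Mylpf at 12333 and Myl1 at 9698. The giant proteins had far less per length, with 395 for Neb and 185 for Ttn, and Casq2 was lowest at 23.0. Against Casq1, at 4020.0 per kilobase, Casq2 was thus the less abundant calsequestrin transcript in the controls.

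A set of 7 genes departed from the shared level within Steap4f/f, with an SD over 1 after it was subtracted: Myl2 (3.05), Myl3 (3.04), Lmod2 (1.60), Casq2 (1.31), Actn2 (1.29), Mb (1.21) and Mybpc1 (1.13). For the other 40 genes this SD was 0.08 to 0.61. In Steap4f/f replicate 5 all of these 7 genes lay below the median gene, at 0.0367 (Myl2) to 0.348 (Casq2) of its percentage. The same 7 genes were the ones more than 1.5-fold above the median gene in Steap4f/f replicate 6, at 262 to 391% of their control means. Genes of slow fibres that are not among the 47 were high in that library too. The slow myosin Myh7 had 0, 1.8, 44.5 and 7619.5 in Steap4f/f, slow troponin I (Tnni1) had 0, 0.7, 4.0 and 759.3, and the summed value of 5 slow-fibre markers was 204, 232, 212 and 10719.8. High values in replicate 6 were not limited to slow-fibre genes. Among 6 fast-fibre markers, the myosins Myh1, with 3516, 3160, 2161 and 32068, and Myh2, with 27.8, 2974, 311.9 and 8096, stood out there as well, while Tnnt3 and Tnni2 had about the same value in replicates 2 and 6.

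A different set stood high in Steap4AKO replicate 2. Casq2, Pdlim3, Myom3, Tpm2, Jph2 and Jph1 kept more than 20% of their control mean there (239.9, 67.4, 46.8, 37.2, 22.7 and 22.5%), where the median gene kept 0.717%. Mybpc1, Srl, Myom1 and Tpm1 kept 14.1, 10.2, 10 and 9.96%. Of these genes, Myom3, Srl, Myom1 and Jph1 had 160.9, 258.8, 366.5 and 244.0 in Steap4AKO replicate 2. In replicate 3 they were higher, at 627.5, 476.1, 398.4 and 252.9, while the other genes named here were higher in replicate 2. Smooth muscle markers were also high in Steap4AKO replicate 2. The median of 8 such markers was 416% of its control level there and 92.5% in Steap4AKO replicate 3, against 84.5 to 139% in Steap4f/f. Desmin (Des), among the 8, is also a gene of striated muscle. For 7 of the 8, Steap4AKO replicate 2 had the highest value of all 6 libraries, among them Smtn with 2252 against 1457 to 1655 elsewhere. Des did not follow them, with 3198, 13212, 7343 and 17680.5 in the controls against 3212 and 1145. Smooth muscle actin (Acta2) was 10482 there and at most 3788 in the other libraries, and the myosin light chain kinase Mylk was 10172 and at most 1624. The part of smooth muscle in the remaining levels of these genes was not tested.

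The genes that stood high in Steap4AKO replicate 3 were in part the same. Myom3, Casq2, Jph1 and Srl were high in both Steap4AKO libraries, while Lmod2 and Actn2 were at 0.626 and 0.103% in replicate 2. The levels that follow are those of replicate 3. Myom3 stood at 182% and Casq2 at 56.3% of the control mean, followed by Jph1 at 23.3%, Lmod2 at 19.7%, Srl at 18.8% and Actn2 at 13.9%, where the median gene stood at 5.09%. Actn3 and Cacng6 were at 1.94 and 1.93%. The fast oxidative myosin Myh2, not one of the 47, was 377.6 in this library and 27.8, 2974, 311.9 and 8096 in the Steap4f/f libraries, so that it too lay above Steap4f/f replicate 1, as Lmod2 and Actn2 did.

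**Figure D4:**
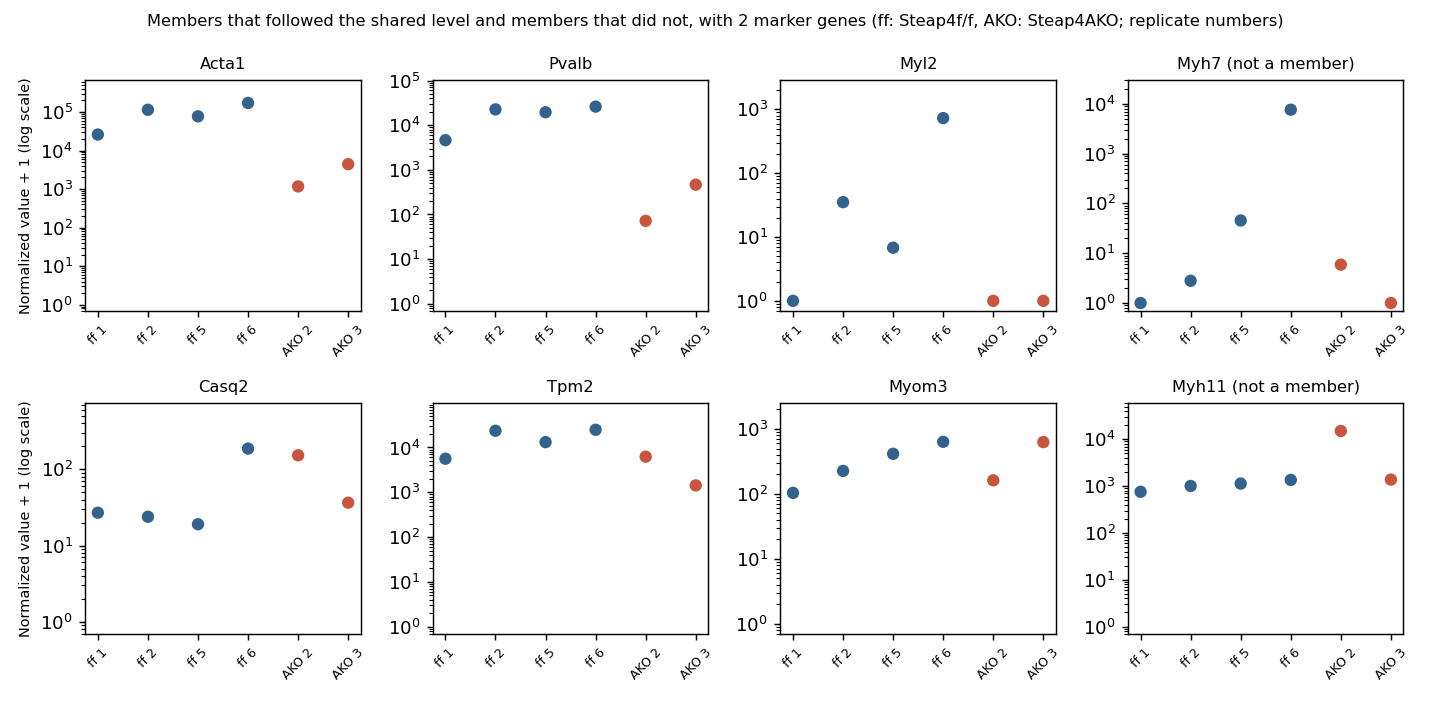
Normalized values plus 1 (log axis) in the 4 Steap4f/f (ff) and 2 Steap4AKO (AKO) libraries for 6 of the genes and for 2 markers that are not among them, the slow myosin Myh7 and the smooth muscle myosin Myh11. Acta1 and Pvalb separate the groups, Myl2 and Myh7 are high in ff 6, and Casq2 and Tpm2 are higher in AKO 2 than in AKO 3, as is Myh11.

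Other genes of the same structures were followed in 2 further lists. The sarcomere list overlaps the skeletal muscle markers above, sharing Myh1, Myh2, Myh4, Tnnt3, Tnnc2, Tnni2, Klhl41 and Trim54, so that the 2 are not separate. Of 42 other sarcomere genes 41 were in the table, 7 fell, none rose, and 25 were lower without overlap, with a median log2 difference of -2.99. Over all genes tested 0.433% fell and 14.4% were lower without overlap. Myh4, Tnnt3 and Tnni2 had the highest control means of that list. The fast myosin Myh4 had 42908, 179960.3, 157641 and 203597 in the controls against 43.2 and 4586 for Steap4AKO (adjusted p = 0.0665), and fast troponin T (Tnnt3) 9598, 42001, 30249 and 40360.1 against 25.8 and 968.8 (adjusted p = 0.0536). Fast troponin I (Tnni2) had 4493, 20129, 13759 and 20064 against 21.5 and 554.2 (adjusted p = 0.0527). Tpm3, a tropomyosin of slow fibres that is also made outside muscle, had 2709, 3114, 2919.7 and 7269.9 against 4791 and 4109 (adjusted p = 0.725). Both Steap4AKO libraries lay above Steap4f/f replicates 1, 2 and 5 and below replicate 6. Tpm3 was picked out after its values were seen.

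Of 34 other excitation-contraction genes 32 were in the table, 2 fell and none rose, with a median log2 difference of -0.57 and 12 lower without overlap, beside the same 0.433% and 14.4% of all genes tested. The genes that fell were the counter-ion channel Tmem38a, from 841.8, 2829, 2069 and 4157 to 95.0 and 156.9 (adjusted p = 0.0466), and the potassium channel Kcna7, from 149.8, 612.5, 341.6 and 763.6 to 0.7 and 16.8 (adjusted p = 0.0492). Atp2a2, the SERCA2 pump that most cells use, had 3235, 3118, 3109 and 7816 against 5832 and 3525 (adjusted p = 0.823). Both Steap4AKO libraries lay above Steap4f/f replicates 1, 2 and 5 and below replicate 6, where for the SERCA1 gene Atp2a1 they lay far below every control. Fkbp1a, a ryanodine receptor-binding protein that is made in all cells and had one of the 3 highest control means of that list, had 4802, 4799.5, 4797 and 4269 against 5267 and 4536 (adjusted p = 0.813).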

How the data were processed

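RNA was sequenced from inguinal fat of 4 Steap4f/f and 2 Steap4AKO libraries. The submitters' processing notes name DESeq2 1.12.4, R 4.2.0, RSEM 1.3.3 and STAR 2.7.0e, and the builds GRCm38 and mm10, without saying what each was used for; the sources used here name no gene annotation. The deposited values were taken as a normalized signal per gene, made by the authors with DESeq2 as the name of their table says. Whole reads were not recovered (with the best step, 0.71 to 1.19, only 43.9 to 56.3% of low values came within 0.1 of whole numbers), so no count test was run, depth is unknown and no counting interval was computed. Symbols matched 15125 of 15176 genes; coordinates and exon lengths are from GENCODE M21 on GRCm38. How reads were shared between near-identical paralogs, such as actins and tropomyosins, is not stated, so that these are less certain.

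Two-sided limma 3.58.1 (R 4.3.3, intensity trend, no covariate) was run on log2(value + 1) for 15006 genes with a mean of at least 10. Log2 differences are Steap4AKO minus Steap4f/f and, with the pseudocount of 1, understate changes at low values; a fold is one group's mean over the other's. The fit was tested on simulated data in which genes varied independently and their spread was capped below the median log2 SD of these genes (1.16). That test did not cover genes that vary as widely and as jointly as these do. All 47 genes are accounted for; 33 were named with values in each library by rule (2 highest per role, called genes, 5 lowest and 5 highest differences, 5 largest residual spreads), and values printed for further genes were chosen after they were seen. Some genes of the further lists that this rule would name are not reported here. Genes and lists were chosen with earlier results of these data known. Alternatives were pseudocounts, filters, scalings, variance models and each library left out.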

Additional observations from a re-analysis of the deposited data

Results flagged for a closer look

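In 48 sets of 4 Steap4f/f values (the 47 genes and Steap4), 4 libraries lay far from the other 3 of their set by Dixon's test; chance gives about 1 in 20 sets. In Steap4f/f replicate 6, Myl2 was 728.8, Myl3 was 600.3 and Casq2 was 184.6, against at most 34.2, 9.1 and 25.9 in the other control libraries. In Steap4f/f replicate 1, Steap4 was 17018 against 8310.0 to 9417 in the others.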

How the results depend on the processing

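The number of the 47 genes past the threshold was 14, beside 71 of all genes tested. It was 13 with no filter on low values (67 of all genes), 15 under quantile normalization (84) and 21 with a pseudocount of 5 (123). Scaling each library to the same total gave 13 (57), array weights gave 24 (119) and an adjusted p under 0.1 gave 33 (410). It was 0 with a pseudocount of 0.5, with a mean of at least 50, with a robust prior and with totals scaled without muscle genes (1 of all genes in each). No intensity trend also gave 0 (13 of all genes). Without Steap4f/f replicate 1 it was 31 (238 of all genes), and 0 without Steap4f/f replicate 2, 5 or 6 (1 in each). Leaving out a Steap4AKO library leaves 1 that is assumed to vary like the controls, so that no count of calls is given. The cause of these changes was not tested. At the settings of the report 41 of the 47 had an unadjusted p under 0.05. The median log2 difference (-5.01) ranged from -6.23 to -3.94 with a library left out and from -5.38 to -4.65 otherwise. Scaling to the same total moved the median of all genes to 0.21, and to 0.15 with muscle genes left out of the total. The count lower without overlap (39, beside 14.4% of all genes tested) ranged from 39 to 44 with a library left out. The share over all genes was not computed for those settings. The residual SD within Steap4f/f (0.28) ranged from 0.20 to 0.38. The median SD before subtraction (1.16) was 0.54 without Steap4f/f replicate 1, and 1.34, 1.38 and 1.1 without replicates 2, 5 and 6. Casq2 reversed to a log2 difference of -0.09 without Steap4AKO replicate 2, and Myom3 to -0.79 without Steap4AKO replicate 3 and to -0.29 without Steap4f/f replicate 1; they were 1.97 (Casq2, without Steap4AKO replicate 3) and 1.16 (Myom3, without Steap4AKO replicate 2) at their highest, and no other direction reversed under these alternatives. Without Steap4f/f replicate 6, 45 of the 47 genes were tested, since the means of Myl2 and Myl3 were then under 10. No paired analysis was possible because the groups share 1 replicate number only, 2.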
